A study of Mus musculus with 6 samples.

Results

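The comparison covered resting naive CD4+ T cells, a helper population without previous antigen contact, from mice labelled Zak-deficient against the same cells from wild-type (WT) mice. Its members were the 2 libraries taken at 0 h, out of 6 libraries in all, chosen by their genotype and time labels and by no measured value. The cells of the first kind carried the genotype Zak-/- and the WT cells the wild-type genotype, both with the strain background given as C57BL/6, from animals 6 to 8 weeks old. A label also speaks of a deficiency conditional on T cells, which leaves the kind of deletion unsettled, and the labels give neither a Cre driver nor the targeted exon. Cells of the CD44lo CD62Lhi phenotype had been isolated from the lymph nodes and spleen with a flow sorter, and in the other 4 libraries they were stimulated through CD3 and CD28 for 6 or 48 h. Each group was 1 library, and the labels do not say from how many mice a library was made or whether the 3 libraries of a genotype came from the same mice. There was therefore no replicate check of any difference and no test. Values are FPKM, fragment counts scaled for transcript length and library size, as the authors deposited them. A difference is given as the log2 ratio of FPKM+1, Zak-deficient over WT, and every fold is on that scale, which understates differences of genes with low values. Of the 18446 genes listed, 10347 averaged at least 1 FPKM across the 6 libraries, and counts refer to these.

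Zak, encoded by Map3k20, is a MAP kinase kinase kinase, the first tier of a cascade in which MAP2 kinases pass a stress signal on to p38 and JNK. It is best known as the kinase that binds ribosomes and responds when they stall or collide, the ribotoxic stress response. Resting naive T cells are quiescent: they keep high levels of genes for homing and IL-7 survival signals, and low levels of the immediate early genes that T cell receptor (TCR) signalling switches on through MAP kinases.

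The level of Map3k20 did not set the 2 labels apart. Map3k20 (chromosome 2, 72285637 to 72442610, GRCm38.p6) stood at 0.10 FPKM in the library labelled Zak-deficient and 0.17 FPKM in WT, too low to check a deletion, and at 48 h it was no lower in the library labelled Zak-deficient (1.61 FPKM) than in WT (1.35 FPKM). Every direction below therefore rests on the label. All 10 genes that define naive CD4+ T cells were present at similar levels. The coreceptor gene Cd4 stood at 357.2 FPKM in the library labelled Zak-deficient and 329.1 FPKM in WT, the homing receptor gene Ccr7 at 522.8 and 501.5 FPKM, and the lineage factor gene Tcf7 at 985.1 and 1021 FPKM. The 10 genes summed to 3689 FPKM under the label Zak-deficient and 3770 FPKM in WT, and their log2 differences lay between -0.15 and 0.12.

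Markers of other lineages were mostly low, and those of B cells were uneven between the libraries. All 14 B cell markers listed were higher in the library labelled Zak-deficient, with a sum of 21.6 FPKM against 12.3 FPKM in WT. Only 6 of the 14 were counted, and the other 8 averaged under 1 FPKM. Among the 14, the B cell receptor chain genes Cd79a (3.79 FPKM in the library labelled Zak-deficient, 2.04 FPKM in WT) and Cd79b (1.63 and 0.47 FPKM) are specific to B cells. Some other low marker lists leaned higher too, with 7 of 9 NK and innate lymphoid and 5 of 7 dendritic cell markers. Red cell and platelet markers had 3 higher and 5 lower. Of all counted genes, 47.4% were above 0. In bulk RNA, fewer cells of a type and less RNA per cell cannot be told apart. Of 7 counted MHC class II genes, whose products present antigen and are made by B cells, the 4 that are also B cell markers were higher, such as H2-Ab1 with 2.09 FPKM in the library labelled Zak-deficient and 0.74 FPKM in WT, and Cd74, the invariant chain gene, with 8.55 and 5.90 FPKM. The other 3, H2-DMa, H2-Oa and H2-Ob, had log2 differences of -0.27, -0.04 and 0.01. Of the 12 monocyte and macrophage markers, 5 were listed at 0 in the library labelled Zak-deficient and 4 in WT, and the 12 summed to 0.98 and 1.10 FPKM. NK and innate lymphoid markers summed to 10.3 FPKM in the library labelled Zak-deficient and 8.93 FPKM in WT, neutrophil markers to 11.5 and 12.1 FPKM, plasma cell markers to 36.0 and 31.4 FPKM, nearly all of it Xbp1, and CD8 T cell markers to 10.5 and 11.7 FPKM. The remaining marker lists were those of gamma delta T cells (0.40 FPKM under the label Zak-deficient, 0.21 FPKM in WT), dendritic cells (20.7 and 22.1 FPKM), red cells and platelets (4.38 and 4.80 FPKM) and stroma and endothelium (93.6 and 95.1 FPKM). Of these, the dendritic sum was mainly Bst2 and the stromal sum mainly Pecam1, which T cells also express. The Y-linked genes Eif2s3y (1.49 FPKM in the library labelled Zak-deficient, 1.04 FPKM in WT) and Uty (1.29 and 0.85 FPKM) were low in both libraries.

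Few genes differed between the resting libraries. The median gene was 1.06-fold apart, and 1 gene in 100 was 1.52-fold apart or more. By a 2-fold rule, 23 genes were higher in the library labelled Zak-deficient (0.222% of counted genes) and 5 were lower (0.0483%). By a 1.3-fold rule, 199 were higher (1.92%) and 200 lower (1.93%). The median log2 difference over all counted genes was -0.01, with 47.4% of genes above 0 and 51.9% below. Values summed to 496045 FPKM in the library labelled Zak-deficient and 501428 FPKM in WT, with 2401 and 2680 genes listed at 0. Low values did not share a common step between the libraries, so their depths could not be recovered and are unknown. The plot of all counted genes shows these differences against level.

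**Figure D1:**
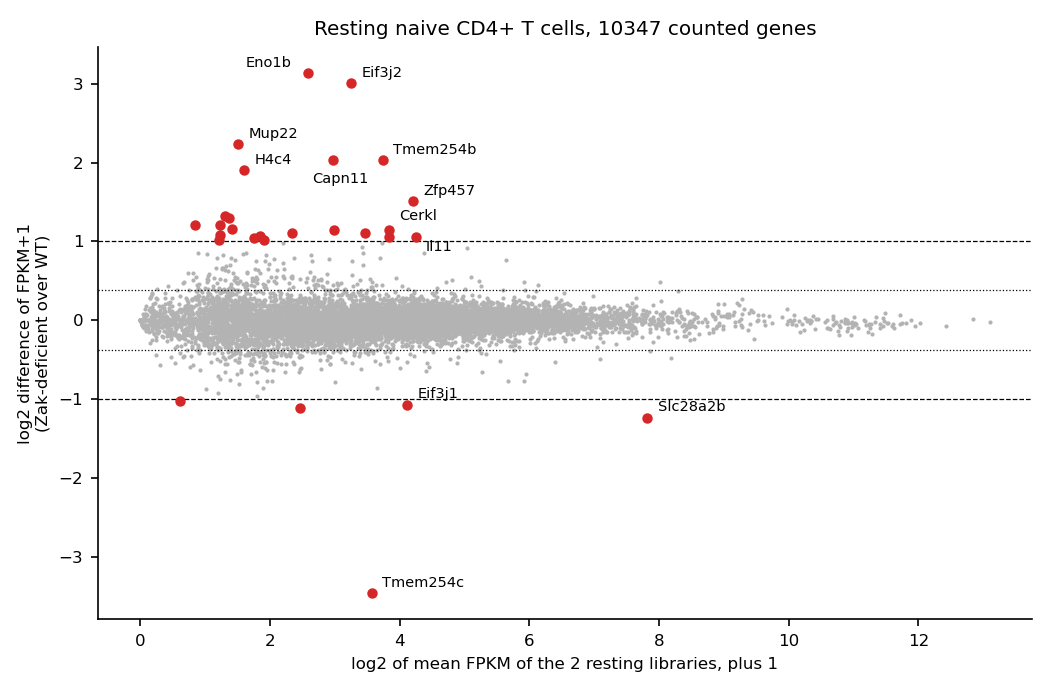
Log2 difference of FPKM+1 (Zak-deficient over WT, 0 h) of each of the 10347 counted genes against the log2 of the mean FPKM of the 2 resting libraries, plus 1. Dashed lines mark 2-fold and dotted lines 1.3-fold; red points are the 23 genes higher and 5 lower by 2-fold, most of them at low or middle levels, with Slc28a2b the exception at the right.

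Most of the genes 2-fold apart at rest resemble another gene in sequence. Of the 28, 19 shared 10% or more of their 31-base words with another gene's transcripts, against 13.7% of all counted genes, and 10 carried a 31-base word found in 50 or more genes. Reads of such genes may be split between copies, so their levels are uncertain. Opposite differences within copies were the clearest pattern. Eif3j2, a near-copy of Eif3j1, stood at 15.95 FPKM in the library labelled Zak-deficient and 1.11 FPKM in WT (log2 difference 3.01). Eif3j1, which encodes a subunit of the translation initiation factor eIF3, went the other way, with 10.2 FPKM in the library labelled Zak-deficient and 22.4 FPKM in WT (-1.07). Eif3j2 shared 94.9% of its words and Eif3j1 38.4%. Likewise Tmem254b stood at 20.5 FPKM under the label Zak-deficient and 4.26 FPKM in WT, and its copy Tmem254c at 0.97 and 20.7 FPKM, and each shared 100% of its words. The summed level of such a pair differed less than its members did.

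Other genes past 2-fold also had close relatives. Eno1b, a near-copy of the enolase gene Eno1 that shared 89.0% of its words, stood at 9.82 FPKM in the library labelled Zak-deficient and 0.23 FPKM in WT (log2 difference 3.14), while Eno1 stood at 147.8 and 151.7 FPKM. Slc28a2b and Slc28a2 are neighbouring genes for concentrative nucleoside transport, and both were lower. Slc28a2b stood at 133.85 FPKM in the library labelled Zak-deficient and 316.9 FPKM in WT (-1.24), and Slc28a2 at 112.5 and 158.6 FPKM (-0.49). Of the other nucleoside transporter genes, Slc29a1, for equilibrative transport, stood at 16.1 FPKM in the library labelled Zak-deficient and 12.4 FPKM in WT. Xlr3b, from a family of multicopy genes on the X chromosome, stood at 9.93 and 3.95 FPKM (1.14), while its relatives Xlr4a, Xlr4b and Xlr4c had log2 differences of -0.16, -0.01 and -0.03. Of the replication-dependent histone genes, whose mRNAs mostly lack poly(A) tails, 3 passed 2-fold: H4c4 (3.78 FPKM under the label Zak-deficient, 0.28 FPKM in WT), H4c9 (2.68 and 0.50 FPKM) and H2ac24 (2.20 and 0.51 FPKM). Of 59 histone genes listed, 42 averaged under 1 FPKM and were not counted. Of the 17 counted, 5 were 1.3-fold higher and 2 lower, against 1.92% and 1.93% of all counted genes. Of these 17, 15 shared 10% or more of their words. H2ac24 was counted only through its 48 h levels, 50.65 FPKM in the library labelled Zak-deficient and 48.1 FPKM in WT. Mup22, of the major urinary protein family, shared 100% of its words. It stood at 3.69 FPKM in the library labelled Zak-deficient and was listed at 0 in WT. Mup22 was counted only through that 1 value. It stood at 0.75 FPKM under the label Zak-deficient and 0.94 FPKM in WT at 6 h, and at 0.86 and 0 FPKM at 48 h.

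The rest were mostly genes without close copies. Capn11, for a calpain protease, stood at 11.6 FPKM in the library labelled Zak-deficient and 2.09 FPKM in WT (log2 difference 2.03), and shared none of its words. Inafm2, for a small membrane protein, stood at 14.1 and 6.00 FPKM (1.11), also without shared words. Zfp457, a zinc finger gene that shared 14.6% of its words, stood at 26.2 and 8.51 FPKM (1.52), Cerkl, for a ceramide kinase-like protein, at 18.7 and 7.91 FPKM (1.14), and Il11, a cytokine gene, at 24.6 and 11.3 FPKM (1.06). These 5 genes were higher under the label Zak-deficient, by 2-fold or more. Rgs6, a regulator of G-protein signalling (5.90 FPKM in the library labelled Zak-deficient, 2.20 FPKM in WT), and Nkain3 (18.2 and 8.24 FPKM) also passed, as did the low genes Ly6d (1.51 and 0.09 FPKM), Ooep (2.26 and 0.41 FPKM), Esp6 (2.11 and 0.53 FPKM) and Obox3 (4.0 and 1.48 FPKM). Of these, Esp6 and Obox3 shared 24.5% and 31.1% of their words, and Il11, Nkain3, Rgs6 and Ooep carried a word found in 50 or more genes. Of all 28, 15 had a mean under 5 FPKM in the resting libraries, and 6 were gene models without a name. Every gene lower by 2-fold shared 10% or more of its words.

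Below 2-fold, the widest differences at 5 FPKM or more were in genes of mixed function. Stt3b, a catalytic subunit of the oligosaccharyltransferase that adds N-glycans, stood at 43.55 FPKM in the library labelled Zak-deficient and 75.2 FPKM in WT (1.71-fold lower), while its partner gene Stt3a stood at 40.7 and 41.4 FPKM. Atox1, a copper chaperone gene, stood at 15.6 and 24.9 FPKM, and Pepd, a peptidase gene for proline-ending dipeptides, at 9.52 and 14.4 FPKM. Abhd11 (16.4 FPKM in the library labelled Zak-deficient, 25.3 FPKM in WT), Pigbos1 (7.36 and 11.9 FPKM), Acpp (4.44 and 7.33 FPKM) and Ly6c1 (46.4 and 74.9 FPKM) were lower as well. Higher ones included Spc24, of the kinetochore, with 16.7 FPKM under the label Zak-deficient and 7.93 FPKM in WT, and Smco1 with 42.0 and 21.7 FPKM. Of these genes, Ly6c1 and Smco1 shared 46.8% and 15.2% of their words with others, and Spc24, Smco1, Pigbos1 and Acpp carried a word found in 50 or more genes, so their levels are less certain.

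The libraries of 6 and 48 h, which share no library with those at rest, showed which resting differences were also present after stimulation. Of the 28 genes, 16 had the same direction at 6 h, 22 at 48 h and 13 at both. Of all counted genes, 52.4% had the resting direction at 6 h, 51.5% at 48 h and 27.4% at both. At 6 h 5 of the 28 were 2-fold apart in the resting direction and at 48 h 11 were, against 0.145% and 1.81% of counted genes. Only Eif3j2 and Capn11 were 2-fold higher at all 3 times. Capn11 stood at 5.88 FPKM under the label Zak-deficient and 1.10 FPKM in WT at 6 h, and at 2.54 and 0.30 FPKM at 48 h. Eif3j2 stood at 22.7 and 0.62 FPKM at 6 h and at 21.9 and 1.73 FPKM at 48 h. The Tmem254b and Tmem254c difference did not keep its direction: at 48 h Tmem254b stood at 2.25 FPKM in the library labelled Zak-deficient and 28.2 FPKM in WT, and Tmem254c at 25.5 and 2.34 FPKM.

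**Figure D2:**
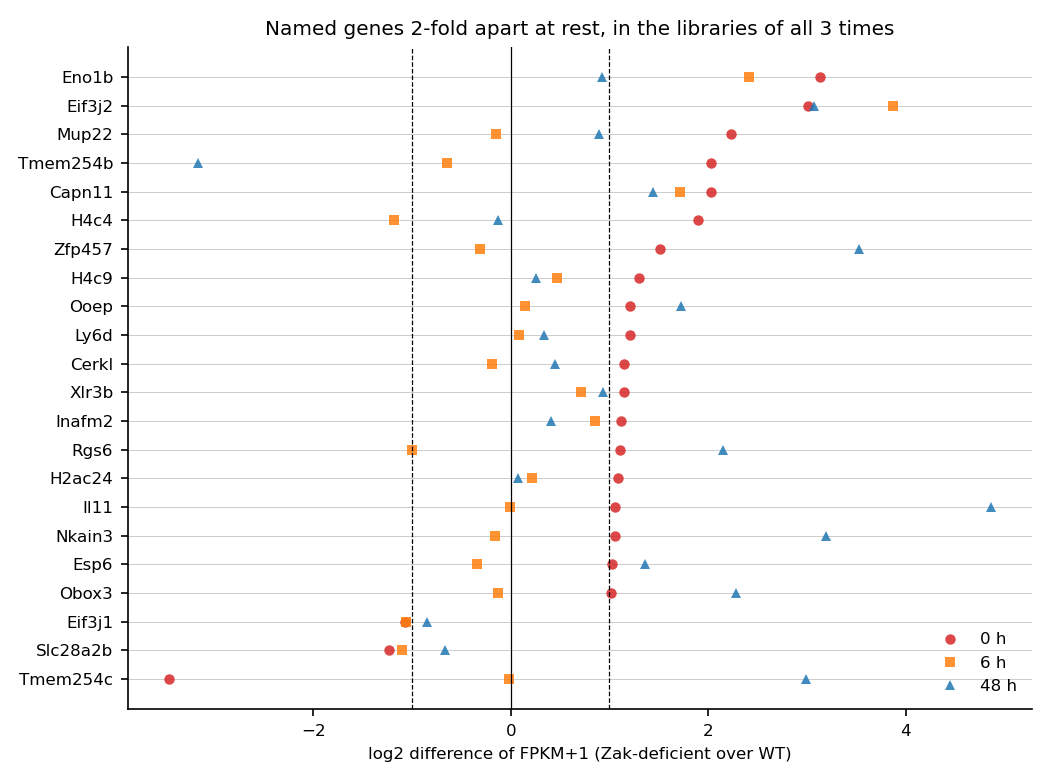
Log2 difference of FPKM+1 (Zak-deficient over WT) at 0 h (circles), 6 h (squares) and 48 h (triangles) of the 22 named genes 2-fold apart at rest, 1 library per genotype and time. Eno1b, Eif3j2, Capn11, Xlr3b, Inafm2, Eif3j1 and Slc28a2b stand on 1 side of 0 at every time. So do H4c9, H2ac24, Ly6d and Ooep, some of them close to 0 at a later time. The remaining named genes, among them Tmem254b, Tmem254c, Zfp457, Nkain3, Il11 and Cerkl, change sides.

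Genes 1.3-fold apart in 1 direction at 0, 6 and 48 h were unevenly placed in the genome. They numbered 26 (0.251% of counted genes), 15 higher and 11 lower, of which 4 had no symbol and 14 shared 10% or more of their words. This rule and the placement were taken up after the values were seen. Chromosome 2, which holds Map3k20 and 7.97% of counted genes, held 10 of the 26 (38.5%), that is 1.21% of its 825 counted genes, against 0.127% of the 9485 on other chromosomes. Of the 37 counted genes without a position, 4 were among the 26. The 10 were 5 higher and 5 lower ones, and 6 of them started between 118 and 123 Mb, a stretch with 74 counted genes. Its bounds were drawn around the outermost of these 6, Inafm2 and Slc28a2b, so its density is no separate result. These 6 lie 46.5 to 50.2 Mb from Map3k20. The labels give C57BL/6 for both genotypes and do not say in which strain the deletion was made.

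The 6 genes of that stretch differed in role and direction. Inafm2, described above, stood at 11.1 FPKM under the label Zak-deficient and 5.67 FPKM in WT at 6 h, and at 9.52 and 6.92 FPKM at 48 h. Slc28a2b and Eif3j1 were lower at each time, with 48 h levels of 16.3 and 30.98 FPKM in the library labelled Zak-deficient, against 26.6 and 56.4 FPKM in WT. Sord, for sorbitol dehydrogenase, was higher, with 3.34 FPKM in the library labelled Zak-deficient and 1.57 FPKM in WT at rest, and 17.2 and 6.50 FPKM at 48 h. Ttbk2, a tau tubulin kinase gene, stood at 5.02 and 3.15 FPKM at rest, and Jmjd7, a JmjC-domain protein gene, at 1.65 and 3.81 FPKM. All but Inafm2 shared 30.6% or more of their words. Elsewhere on the chromosome, Cdk5rap1, for a tRNA-modifying enzyme of mitochondria, stood at 13.1 FPKM in the library labelled Zak-deficient and 6.39 FPKM in WT at rest, 11.35 and 6.35 FPKM at 6 h, and 11.1 and 5.75 FPKM at 48 h. Ube2e3, a ubiquitin-conjugating enzyme gene 6.58 Mb from Map3k20, stood at 11.7 and 18.3 FPKM at rest, 11.8 and 21.1 FPKM at 6 h, and 14.7 and 20.1 FPKM at 48 h. Neither shared as much as 2% of its words with another gene. The other 2 were Zfp972 (29.0 FPKM under the label Zak-deficient, 46.5 FPKM in WT at rest) and the gene model Gm14288, both of which share most of their words with other genes.

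**Figure D3:**
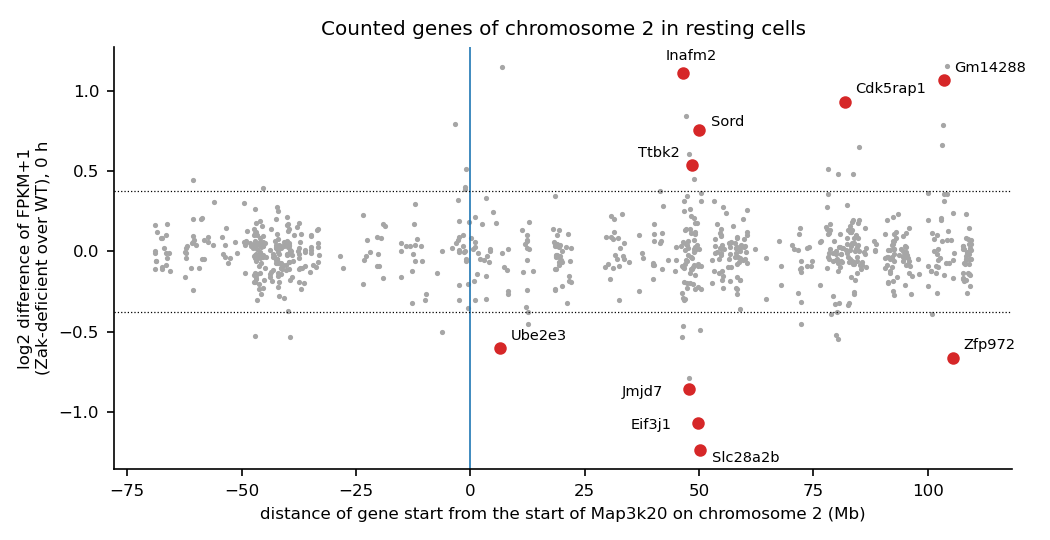
Log2 difference of FPKM+1 at 0 h (Zak-deficient over WT) of the 825 counted genes of chromosome 2 against the distance of each gene's start from that of Map3k20 (vertical line), in Mb. Red points are the 10 genes 1.3-fold apart in 1 direction at all 3 times, 6 of them 46.5 to 50.2 Mb from Map3k20; dotted lines mark 1.3-fold.

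Off chromosome 2, the genes 1.3-fold apart at every time were of varied kinds. Cldn10, a tight junction claudin gene, stood at 3.15 FPKM in the library labelled Zak-deficient and 1.65 FPKM in WT at rest, and at 12.85 and 5.55 FPKM at 6 h. Eps8l1, for an actin regulator, stood at 17.96 and 13.01 FPKM at rest, 17.8 and 9.82 FPKM at 6 h, and 6.77 and 3.74 FPKM at 48 h. Wfikkn2, for a secreted binder of TGF-beta family growth factors, stood at 5.54 FPKM in the library labelled Zak-deficient and 2.79 FPKM in WT at rest, and Cfap74, a cilium gene, at 8.69 and 12.03 FPKM. The rest were Amd2, Tmsb15l, Xlr3b, Eno1b, Eif3j2, Capn11, Tgtp1 and the gene model Gm4070.

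The kinase cascade around Zak had nearly the same levels in both resting libraries. None of its 54 counted genes passed 1.3-fold in either direction, where 1.92% and 1.93% of all counted genes did. The medians of its tiers were 0.02 for 17 MAP3 kinases, 0.03 for 7 MAP2 kinases, -0.01 for 9 MAP kinases and -0.01 for 21 MAPK-activated kinases and scaffolds. Among MAP3 kinases, Map3k1 stood at 38.4 FPKM in the library labelled Zak-deficient and 36.1 FPKM in WT, Map3k5 (ASK1) at 14.1 and 14.7 FPKM, and Map3k7 (TAK1) at 21.9 and 22.3 FPKM. The MAP2 kinases for p38 and JNK, Map2k3 (15.2 FPKM in the library labelled Zak-deficient, 13.9 FPKM in WT), Map2k4 (18.2 and 19.1 FPKM), Map2k6 (1.73 and 1.89 FPKM) and Map2k7 (45.1 and 45.3 FPKM), differed by no more than 0.13 on the log2 scale. Mapk14, for p38 alpha, stood at 36.0 and 33.7 FPKM, and the JNK genes Mapk8 at 7.87 and 7.46 FPKM and Mapk9 at 17.3 and 16.2 FPKM. The scaffold genes Spag9 (23.5 FPKM under the label Zak-deficient, 20.3 FPKM in WT) and Mapk8ip3 (55.7 and 49.2 FPKM), both binders of JNK, had the widest positive differences, at 0.20 and 0.17.

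Genes of ribosome surveillance and of the TCR were equally close. Of 22 counted genes for ribotoxic stress and ribosome quality control, none passed 1.3-fold and the median was 0.03. Zfp598, for a ubiquitin ligase that marks collided ribosomes, stood at 39.6 FPKM in both libraries, and Gcn1, a collision sensor gene, at 17.5 FPKM in the library labelled Zak-deficient and 17.7 FPKM in WT. Of 33 genes for the TCR complex and its proximal signalling, none passed 1.3-fold either, with a median of 0.00. The widest were the ubiquitin ligase gene Cblb, a brake on TCR signalling (121.8 FPKM in the library labelled Zak-deficient, 104.4 FPKM in WT), and Cd247, the zeta chain gene (318.1 and 364.8 FPKM). The 25 naive and quiescence genes had a median of -0.03 and none past 1.3-fold, with Klf2, a factor for egress and quiescence, at 311.7 and 317.3 FPKM and the IL-7 receptor gene Il7r at 556.3 and 524.6 FPKM. NFAT, calcium and potassium genes (24 counted, median -0.02) and JAK-STAT feedback genes (21, median -0.04) also had none. By the shares of all counted genes past 1.3-fold, 1.92% higher and 1.93% lower, few or none would fall in lists of these sizes.

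**Figure D4:**
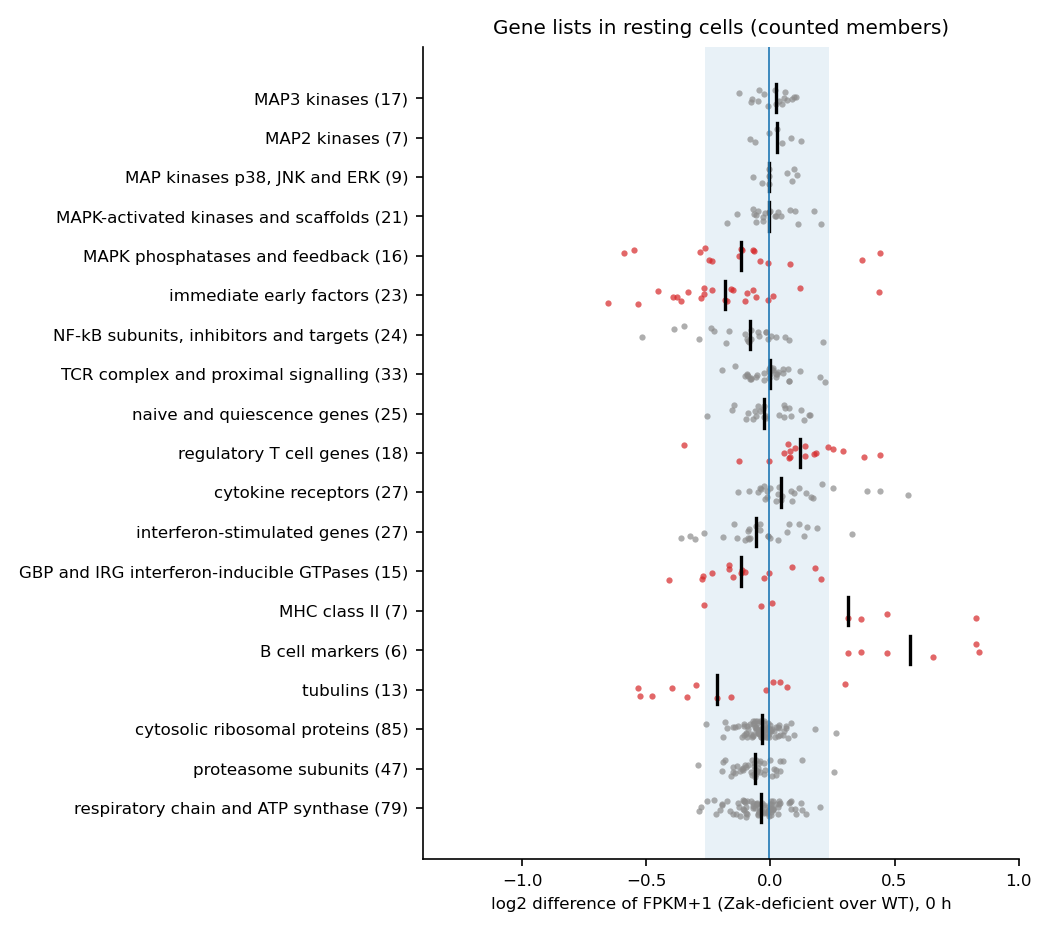
Log2 difference of FPKM+1 at 0 h (Zak-deficient over WT) of the counted members of 19 gene lists, with the number counted in brackets; each point is a gene and the black bar is the list's median. The blue line is the median of all counted genes and the blue band holds the central 90% of them; lists in red have a median 0.1 or more from that line, and the kinase tiers at the top sit within the band.

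Of 53 lists with 5 or more counted members, 7 had a median 0.1 log2 or more from that of all counted genes: those of MAPK phosphatases, immediate early factors, regulatory T cell genes, interferon-inducible GTPases, tubulins, MHC class II and B cell markers. The last 2 are described above. Beside the resting counts of each list stand the shares of all counted genes. These were 1.92% higher and 1.93% lower by 1.3-fold, with 47.4% above 0 and 51.9% below.

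Immediate early factors, the transcription factors and regulators that TCR and MAP kinase signals switch on within minutes, were lower at rest. Of 23 counted, 20 were below 0 and 3 above, with a median of -0.18, where 51.9% of all counted genes were below 0. By 1.3-fold, 4 were lower and 1 was higher, against 1.93% and 1.92% of all counted genes. Fos, a partner of Jun in AP-1, stood at 3.26 FPKM in the library labelled Zak-deficient and 5.70 FPKM in WT. Egr2, an anergy-linked zinc finger factor, stood at 0.74 and 1.52 FPKM, Fosb at 1.38 and 2.12 FPKM and Atf3 at 0.35 and 0.85 FPKM. Nr4a1, the orphan receptor gene used as a reporter of TCR signalling, stood just under 1.3-fold, at 27.4 FPKM in the library labelled Zak-deficient and 35.9 FPKM in WT. Fosl2, another AP-1 member, was the exception past 1.3-fold, at 42.8 FPKM in the library labelled Zak-deficient and 31.4 FPKM in WT. Nr4a1 and the genes Egr1, Jund and Myc named here were picked after their values were seen.

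After 6 h of stimulation the direction of this list was the opposite. At 6 h 18 of the 23 were above 0 and 5 below, with a median of 0.20, where 46.5% of all counted genes were above 0. A lean at 6 h was not particular to this list. DNA and histone methylation enzymes had 16 of 22 above 0 (median 0.30), and cytosolic ribosomal protein genes had 10 of 85 above 0 (median -0.19). Nr4a1 stood at 1010 FPKM in the library labelled Zak-deficient and 734.0 FPKM in WT, Egr1 at 245.1 and 195.9 FPKM, Jund at 63.0 and 44.3 FPKM and Fos at 29.71 and 23.15 FPKM. At 48 h the median of the immediate early list was 0.01, with 13 above 0 and 10 below. Myc, a driver of growth, stood at 8.75 FPKM under the label Zak-deficient and 11.5 FPKM in WT at rest, at 185.1 and 166.3 FPKM at 6 h, and at 87.0 and 98.8 FPKM at 48 h. The serum response element core bound by SRF, the CArG box, was searched in RefSeq promoters. It occurred in 3 of the 19 immediate early genes found there (Egr2, Srf and Zfp36) and in 1.81% of all genes with a promoter. The search covered 250 bases before to 50 after a start, so elements further away were not seen, and Egr1 was not among the 19.

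MAPK phosphatases and feedback genes, many of which MAP kinase activity induces and most of which limit it, were also lower at rest. Of 16 counted, 13 were below 0, with a median of -0.12. By 1.3-fold, 2 were lower and 1 was higher, and the 2 lower were Gadd45 genes, not phosphatase genes. Gadd45g, for an activator of the MAP3 kinase Map3k4, stood at 0.36 FPKM in the library labelled Zak-deficient and 1.05 FPKM in WT, and its relative Gadd45b at 23.02 and 34.12 FPKM. Dusp6, an ERK phosphatase gene, stood at 1.34 and 1.85 FPKM and Dusp16, a JNK phosphatase gene, at 2.15 and 2.78 FPKM. Dusp10, a phosphatase gene for p38 and JNK, stood higher, at 76.18 FPKM in the library labelled Zak-deficient and 58.75 FPKM in WT, a little under 1.3-fold. Dusp22, with 3.35 and 2.20 FPKM, was 1.3-fold higher. With a pseudocount of 5 FPKM the median was -0.05, and with no filter on level it was -0.09, both less than 0.1 from that of all genes. At 6 and 48 h the medians were 0.03 and 0.02.

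Interferon-inducible GTPases had medians below 0 at all 3 times. The guanylate-binding proteins (GBP) and immunity-related GTPases (IRG) defend cells against intracellular pathogens and are induced by interferon gamma. At rest 12 of 15 counted genes were below 0, with a median of -0.12 and 1 gene 1.3-fold lower. At 6 h all 15 were below 0, with a median of -0.42, and at 48 h again all 15, with a median of -0.39, where 53.1% and 53.9% of all counted genes were below 0. Tgtp1, an IRG gene, stood at 5.74 FPKM in the library labelled Zak-deficient and 7.95 FPKM in WT at rest, 10.6 and 18.0 FPKM at 6 h, and 8.95 and 14.97 FPKM at 48 h. Gbp9 stood at 25.1 and 30.6 FPKM at rest, Ifi47 at 49.6 and 58.6 FPKM and Iigp1 at 1.41 and 1.91 FPKM. Irgm1, a regulatory IRG gene, was above 0 at rest, with 17.8 FPKM in the library labelled Zak-deficient and 15.3 FPKM in WT, and stood at 16.1 and 23.2 FPKM at 6 h. Igtp and Gbp2 were picked after their values were seen. Igtp stood at 45.4 FPKM under the label Zak-deficient and 51.1 FPKM in WT at rest and 37.9 and 56.8 FPKM at 48 h, and Gbp2 at 11.2 and 12.2 FPKM at rest and 65.9 and 107.9 FPKM at 48 h. Of the 15, 9 shared 10% or more of their words with another gene, and the median of the other 6 at rest was -0.07; with a pseudocount of 5 FPKM that of all 15 was -0.10, no longer 0.1 from that of all genes.

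The promoters of these GTPases are known to carry interferon elements: the interferon-stimulated response element (ISRE), bound by interferon regulatory factors, and the gamma-activated sequence (GAS, TTCNNNGAA), through which interferon gamma acts. In RefSeq promoters (GRCm38.p6, 250 bases before to 50 after each start, both strands searched), a core of the ISRE occurred in 10 of the 11 GTPase genes found there and in 3.99% of all 27025 genes, and GAS in 6 of the 11 and in 9.55% of all. Promoters are shown for 3 members that stood lower at each time, to let the elements be seen in place. Capitals mark the matches, the ISRE core in each and, in Igtp and Tgtp1, also a GAS just before it. A match describes the letters and does not show binding.
Igtp (chr11:58199306-58199605, plus strand): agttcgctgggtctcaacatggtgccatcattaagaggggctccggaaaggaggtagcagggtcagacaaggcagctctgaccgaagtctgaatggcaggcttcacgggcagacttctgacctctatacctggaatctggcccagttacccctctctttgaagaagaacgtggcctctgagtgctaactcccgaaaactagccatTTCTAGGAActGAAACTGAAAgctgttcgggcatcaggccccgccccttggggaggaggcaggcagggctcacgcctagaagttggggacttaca
Gbp2 (chr3:142620413-142620712, plus strand): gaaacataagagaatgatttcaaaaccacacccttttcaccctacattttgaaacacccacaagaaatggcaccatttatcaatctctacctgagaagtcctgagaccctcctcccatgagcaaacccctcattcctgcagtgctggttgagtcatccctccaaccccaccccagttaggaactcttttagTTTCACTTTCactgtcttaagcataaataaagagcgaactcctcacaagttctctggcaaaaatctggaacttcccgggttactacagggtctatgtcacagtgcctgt
Tgtp1 (chr11:48992197-48992496, minus strand): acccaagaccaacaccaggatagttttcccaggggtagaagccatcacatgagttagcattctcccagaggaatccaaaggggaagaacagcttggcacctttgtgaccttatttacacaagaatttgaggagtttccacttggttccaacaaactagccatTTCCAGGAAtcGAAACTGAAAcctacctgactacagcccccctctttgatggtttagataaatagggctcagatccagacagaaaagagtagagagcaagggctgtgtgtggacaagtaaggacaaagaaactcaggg

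The wider list of interferon-stimulated genes was less even. At rest 18 of 27 counted were below 0, with a median of -0.06 and none past 1.3-fold, and at 6 h 24 of 27 were below 0, with a median of -0.23. Dtx3l, for a ubiquitin ligase that works with PARP9, stood at 11.9 FPKM in the library labelled Zak-deficient and 15.6 FPKM in WT, and Ifit1bl1 at 26.5 and 33.5 FPKM. Isg15, a ubiquitin-like modifier gene, stood above 0, with 7.06 FPKM under the label Zak-deficient and 5.41 FPKM in WT. Among GIMAP GTPases, which support lymphocyte survival, 8 were counted with a median of 0.01 at rest. Gimap7 had the lowest difference of them, with 45.2 FPKM in the library labelled Zak-deficient and 57.0 FPKM in WT. At 6 h the list as a whole leaned lower, with a median of -0.21 and 6 of 8 below 0, and Gimap7 stood at 26.8 and 40.7 FPKM. Of 21 MHC class I and peptide loading genes, 1 was 1.3-fold lower, H2-Q6 with 36.81 and 63.35 FPKM, which shared 50.3% of its words.

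**Figure D5:**
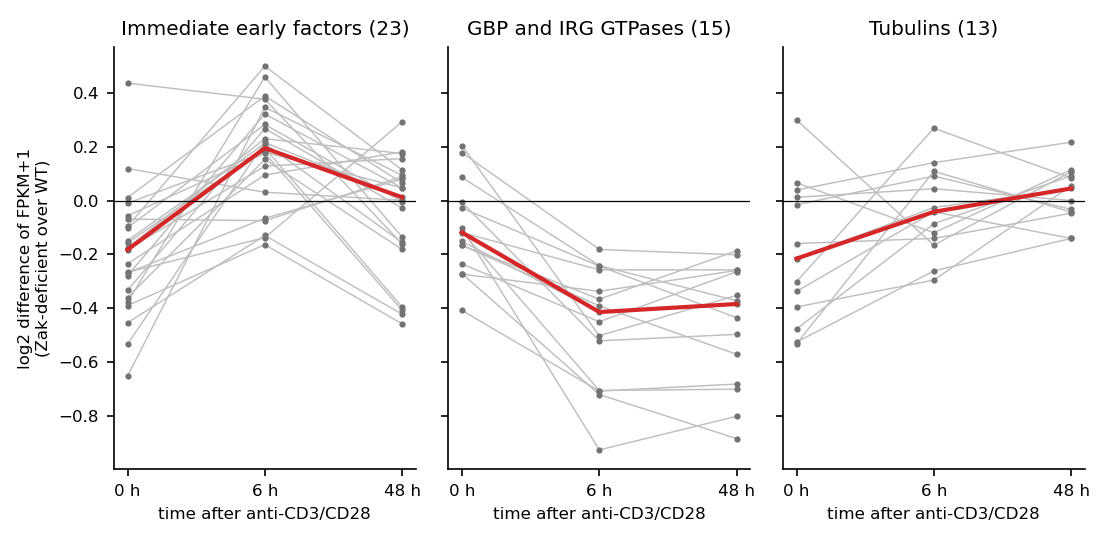
Log2 difference of FPKM+1 (Zak-deficient over WT) of the counted immediate early factors, GBP and IRG GTPases and tubulins at 0, 6 and 48 h of stimulation; grey lines join the values of a gene and the red line joins the medians. The immediate early median moves from -0.18 at 0 h to 0.20 at 6 h, and the GTPase median stays below 0, at -0.12, -0.42 and -0.39.

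Genes of regulatory T cells, the subset that restrains immune responses, leaned the other way at rest. Of 18 counted, 15 were above 0, with a median of 0.12, and 1 was 1.3-fold higher. That gene was Il2ra, for the IL-2 receptor alpha chain, with 14.2 FPKM in the library labelled Zak-deficient and 10.2 FPKM in WT. Nt5e, the ectoenzyme CD73, stood at 19.4 and 15.7 FPKM, Tnfrsf9 (4-1BB) at 5.72 and 4.65 FPKM and the lineage factor gene Foxp3 at 16.0 and 14.1 FPKM. Izumo1r, the folate receptor 4, went against them with 32.3 FPKM under the label Zak-deficient and 41.4 FPKM in WT. Without a filter on level the median was 0.09, and with a pseudocount of 5 FPKM it was 0.07, both less than 0.1 from that of all genes. At 6 and 48 h the medians were 0.01 and 0.06.

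Where 1.92% of all counted genes were 1.3-fold higher and 1.93% lower, 3 of 27 cytokine receptor genes were higher and none lower. They were Il2ra, Il12rb2, the signalling chain of the IL-12 receptor, with 4.08 FPKM in the library labelled Zak-deficient and 2.46 FPKM in WT, and Lifr, for the leukaemia inhibitory factor receptor, with 2.17 and 1.42 FPKM. The list's median was 0.04. Of 22 counted factors of helper lineages, 10 were above 0 and 12 below, with a median of -0.02 and a highest difference of 0.22. Only 1 passed 1.3-fold, Irf4, needed for effector differentiation. It was lower, at 1.92 FPKM in the library labelled Zak-deficient and 2.89 FPKM in WT, and Batf, its AP-1 partner, stood at 17.8 and 22.6 FPKM. Of 24 NF-kB genes, 19 were below 0 with a median of -0.08, and 2 were 1.3-fold lower: the cytokine gene Tnf (1.76 FPKM in the library labelled Zak-deficient, 2.95 FPKM in WT) and the adhesion molecule gene Icam1 (9.02 and 12.1 FPKM). Bmf, a pro-apoptotic member of the BCL2 family, stood at 1.34 and 2.39 FPKM, and was the only one of 17 counted in that family past 1.3-fold.

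Tubulins, the subunits of microtubules, had the lowest median of the 53 lists at rest, -0.22, with 9 of 13 counted genes below 0 and 4 of them 1.3-fold lower. The 4 were Tuba1c (13.2 FPKM in the library labelled Zak-deficient, 19.5 FPKM in WT), Tubb4b (68.3 and 98.9 FPKM), Tuba1b (242.7 and 338.4 FPKM) and Tuba1a (200.35 and 263.87 FPKM). These 4 shared between 48.6% and 77.0% of their words with other genes, so their reads may be split. The 5 tubulins sharing less than 10% had a median of 0.01; of these, Tubb5 stood at 285.4 FPKM in the library labelled Zak-deficient and 331.7 FPKM in WT and Tuba4a at 49.7 and 63.1 FPKM, while Tubb3, Tubb4a and Tubb6, all below 5 FPKM, were above 0. The 17 tubulins listed summed to 1127 FPKM under the label Zak-deficient and 1405 FPKM in WT. With no filter on level the list median was -0.04. At 6 and 48 h the medians were -0.04 and 0.05.

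Large lists of the translation and energy machinery leaned slightly lower, by less than 0.1. Of 85 cytosolic ribosomal protein genes, 65 were below 0 (median -0.03), of 47 proteasome genes 38 (-0.06), of 79 respiratory chain and ATP synthase genes 54 (-0.04) and of 22 glycolysis genes 18 (-0.05), where 51.9% of all counted genes were. No ribosomal, proteasome or respiratory gene passed 1.3-fold. Examples are Rps10 (1631 FPKM in the library labelled Zak-deficient, 1863 FPKM in WT), the proteasome gene Psmb5 (49.97 and 56.84 FPKM) and Ndufs7 of complex I (46.9 and 57.1 FPKM). Their transcripts are short, with list medians of 711.5, 1179.5 and 659 bases for the ribosomal, proteasome and respiratory genes, against 2086.5 bases over all counted genes with a length. Over all genes cut into 4 equal groups by length, the median difference was -0.02, -0.01, 0.00 and 0.01 in order of rising length. In the shortest group 56.8% of genes were below 0 and 3.12% were 1.3-fold lower, against 47.9% and 0.82% in the longest. The part of length in these lists was not tested beyond centring on it, after which no further list stood 0.1 from all genes.

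Genes 1.3-fold higher and lower at rest differed in what they shared. Of the 199 higher genes, 50.3% carried a 31-base word found in 50 or more genes, against 40 of the 200 lower genes and 34.9% of all. Of the same 199, 77 were 2-fold higher at 48 h, among them Il11, Nkain3 and Zfp457, and the median of the 199 was -0.07 at 6 h and 0.82 at 48 h. Of the 200 lower genes, 4 were 2-fold lower at 48 h, and their medians were -0.13 and -0.03. Over all 10347 counted genes, 186 were 2-fold higher and 45 were 2-fold lower at 48 h. The part of the shared words in these differences was not tested.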

How the data were processed

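RNA sequencing values were deposited by the authors as FPKM, 1 per gene and library. Per the submitters' processing notes, Bowtie and RSEM were used on mm10, with versions not given in the sources used here. Each FPKM value is scaled to its own library's mapped fragments, so levels are relative within a library, and the total depth is unknown. No column of values was left out (0). Of 18446 genes, 18326 had a symbol in RefSeq's table (GRCm38.p6) and 120 had none. From these values, differences of log2(FPKM+1) were computed without rescaling over the 10347 genes averaging at least 1 FPKM across 6 libraries. With 1 library per group no test was fitted; calls are size rules of 2-fold and 1.3-fold. The genes compared, the 67 gene lists and the rules were chosen with earlier results of these data known. Named genes were Map3k20, all genes 2-fold apart, the 15 largest differences each way at a mean of 5 FPKM or more at rest, up to 4 members each way of a list or chromosome and any kinase or marker; other names, including all genes 1.3-fold apart at 3 times, were picked after their values were seen. Shared sequence was the share of a gene's 31-base words in GENCODE M21 transcripts found in another gene. Alternatives changed the pseudocount, filter, scaling and size rule, and, added after the data were seen, left out genes with shared sequence or centred on 20 bins of length. The calculations were tested on simulated data. Python 3.11.15, numpy 2.4.6, pandas 2.3.3 and matplotlib 3.10.9 were used.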

Additional observations from a re-analysis of the deposited data

Results flagged for a closer look

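Some differences at rest were reversed at a later time, with 1 library per genotype at each time and no test of the change. H4c4, a histone gene with shared sequence, was 3.73-fold higher at rest in the library labelled Zak-deficient and had a log2 difference of -1.18 at 6 h (0.59 FPKM under the label Zak-deficient, 2.61 FPKM in WT). Rgs6 was 2.16-fold higher at rest and had a log2 difference of -1.0 at 6 h (2.14 FPKM under the label Zak-deficient, 5.28 FPKM in WT). The copies Tmem254b and Tmem254c exchanged directions, with log2 differences at 48 h of -3.17 and 2.99, and every word of each is found in the other or in further genes, so their split levels are uncertain. The immediate early factors had a median of -0.18 at rest and 0.195 at 6 h. The difference between the times was not tested for any of these.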

How the results depend on the processing

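The counts depend on how low values are treated. With a pseudocount of 0.1 FPKM, 67 genes were 2-fold higher and 31 lower, 370 were 1.3-fold higher and 448 lower, and 37 of the 2-fold genes kept 1 direction at all times; with 5 FPKM these were 5, 2, 49, 34 and 4, and at a mean of 5 FPKM or more they were 10, 3, 85, 92 and 7. With no filter, 11 genes were 2-fold lower and 314 were 1.3-fold higher. At 1.5-fold 73 genes were higher and 43 lower, and at 4-fold 5 and 1. Without genes carrying a word found in 50 or more genes, 14 were 2-fold higher and 93 were 1.3-fold higher; without genes sharing 10% or more of their words, 9 were 2-fold higher and 0 lower. The other counts were within 1.5 times of those reported, including all under the 3 scalings, which shifted the median of all genes by at most 0.01. Of 574 list medians recomputed, 544 moved by less than 0.05. Of the 7 lists 0.1 or more from all genes, 1 changed sign, that of the tubulins, at 0.0124 without shared sequence; some medians of other lists, all near 0, also changed sign. Immediate early factors, MHC class II and B cell markers stayed 0.1 or more from all genes under every alternative computed. The GTPases ended that at 5 FPKM and without shared sequence, the MAPK phosphatases and regulatory T cell genes at 5 FPKM and with no filter, and the tubulins also with no filter (-0.04). Lists not 0.1 from all genes that became so under an alternative numbered 3. The cause of these shifts was not tested. No replicate could be left out, and no paired analysis was possible because each group has 1 library at rest; genotype paired by time over all 6 libraries answers another question and was not run. An unknown depth limits what can be said of genes at a few FPKM.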
